A study of Mus musculus with 68 samples.

Results

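A set of 10 immediate early genes was followed across normal intestine and intestinal tumours of mice that differ in Cftr and in Apc. The members, Fos, Fosb, Jun, Junb, Egr1, Atf3, Ier2, Ier3, Dusp1 and Zfp36, were chosen by name as AP-1 and other fast-response genes, and no measured value entered the choice. They are 10 of the 23356 rows of the expression table, and all 10 were among the 14098 rows that passed the filter of at least 1 FPKM in at least 2 specimens. RNA sequencing covered 23 specimens from C57BL/6 mice aged 3 months, in 12 groups of 2 specimens each, save 1 group of a single tumour. Cftr encodes an epithelial chloride and bicarbonate channel, Apc encodes a brake on Wnt signalling, and mice with the Min allele of Apc form many intestinal tumours.

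The Apc wildtype mice with wildtype Cftr gave normal colon and normal duodenum. Apc wildtype mice labelled Cftr knockout carried a floxed Cftr with Villin-Cre, which is active in intestinal epithelium. They supplied normal colon and duodenum and also tumours, 2 from the duodenum and 1 from the colon. From ApcMin animals only tumours were taken: of colon and of ileum where Cftr was wildtype or labelled knockout, and of colon and of duodenum where it was heterozygous, which the labels call a knockdown. The deleted allele of the ApcMin mice is not given in the sources used here, and there was no heterozygous normal tissue. In the text, "wildtype", "knockout" and "heterozygous" refer to Cftr unless Apc is named. The 23 specimens carried 10 animal numbers, although the series description speaks of 23 mice. Both ApcMin tumours of a genotype and organ came from 1 animal number, so genotype and animal cannot be told apart there. Their spread is between tumours. The ApcMin colon and ileum tumours with wildtype Cftr shared 1 animal number, and so did those labelled knockout. The heterozygous colon and duodenal tumours came from different animal numbers. Normal colon and duodenum 1 of a genotype shared an animal, as did colon and duodenum 2, and duodenal tumour 2 of the Apc wildtype knockouts shared its animal with the colon tumour.

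Immediate early genes are switched on within minutes of a stimulus from signalling proteins that are already in the cell, without new protein synthesis. Kinases of the MAP kinase cascades, often set off by receptors such as the EGF receptor, act on factors bound at their promoters, and the messages are then quickly destroyed. Fos and Jun proteins pair as the transcription factor AP-1, while Dusp1 and Zfp36 end the response, the first by removing phosphate from MAP kinases and the other by speeding the decay of unstable messages. Handling of tissue can also induce them. In the intestine they respond to growth factors, microbes and injury.

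Promoter windows are shown for the 5 members that the results turn on. Dusp1 and Jun moved together while Fos and Zfp36 did not follow them. Any link of these movements to the sequences was not tested. Each window runs 5′ to 3′ from 250 bases before to 50 bases after the annotated start, in RefSeq's GRCm38.p6, and 8 of the 10 members had one (Egr1 and Ier2 had none in the table). Capitals mark TGACG on either strand, the core of a cAMP response element, the full element TGACGTCA, which contains that core on both strands, the AP-1 letters TGANTCA on either strand, and TATAAA on the sense strand. Windows lie at chr12:85473640-85473939 on the plus strand for Fos, chr4:95052173-95052472 on the minus strand for Jun, chr17:26508423-26508722 on the minus strand for Dusp1, chr17:35821463-35821762 on the plus strand for Ier3 and chr7:28379179-28379478 on the minus strand for Zfp36.
Fos: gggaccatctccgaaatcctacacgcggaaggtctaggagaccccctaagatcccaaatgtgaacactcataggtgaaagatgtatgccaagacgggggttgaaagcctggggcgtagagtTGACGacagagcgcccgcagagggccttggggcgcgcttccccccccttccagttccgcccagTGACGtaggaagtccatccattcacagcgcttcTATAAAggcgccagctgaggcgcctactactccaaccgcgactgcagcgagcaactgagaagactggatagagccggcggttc
Jun: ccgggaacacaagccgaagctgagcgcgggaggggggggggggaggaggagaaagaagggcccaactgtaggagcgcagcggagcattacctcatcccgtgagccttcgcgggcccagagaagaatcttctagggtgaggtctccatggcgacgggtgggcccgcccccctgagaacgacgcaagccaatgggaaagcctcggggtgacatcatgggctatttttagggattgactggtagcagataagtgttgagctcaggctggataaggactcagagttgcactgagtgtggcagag
Dusp1: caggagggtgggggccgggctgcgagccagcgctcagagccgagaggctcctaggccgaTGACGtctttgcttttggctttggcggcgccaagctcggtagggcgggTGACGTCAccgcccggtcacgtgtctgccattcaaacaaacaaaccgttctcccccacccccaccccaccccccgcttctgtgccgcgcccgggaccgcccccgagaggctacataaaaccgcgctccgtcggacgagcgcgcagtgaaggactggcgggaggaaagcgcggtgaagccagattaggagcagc
Ier3: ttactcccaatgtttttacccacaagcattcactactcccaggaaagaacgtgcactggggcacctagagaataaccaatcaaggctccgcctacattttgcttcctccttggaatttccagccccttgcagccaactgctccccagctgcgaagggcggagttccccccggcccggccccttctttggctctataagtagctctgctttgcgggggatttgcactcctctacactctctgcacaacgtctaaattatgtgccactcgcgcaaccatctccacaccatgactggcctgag
Zfp36: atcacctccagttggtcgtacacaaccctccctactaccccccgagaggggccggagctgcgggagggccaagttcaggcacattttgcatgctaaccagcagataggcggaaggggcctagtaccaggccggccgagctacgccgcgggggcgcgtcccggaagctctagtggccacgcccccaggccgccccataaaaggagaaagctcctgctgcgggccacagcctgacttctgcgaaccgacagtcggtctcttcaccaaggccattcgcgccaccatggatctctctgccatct

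Of the 8 windows, 5 held TGACG (Fos, Fosb, Junb, Atf3 and Dusp1), against 20.8% of 32851 RefSeq promoter windows of the same length. The full element TGACGTCA stood in the Dusp1 window alone, at position -143 from the start, and in 1.79% of all windows. None of the 8 held TGANTCA, which 7.81% of all windows held. TATAAA was found in the windows of Fos and Junb and in 8.32% of all windows. These are matches of letters in the reference sequence, and no binding was measured.

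The members differed widely in level. FPKM counts fragments per length of transcript and library size, so levels can be set side by side between genes. Across the 23 specimens the median was highest for Fos at 69.4 FPKM, ranging from 28.0 to 119 FPKM, and for Junb at 68.2 FPKM, ranging from 39.7 to 96.5 FPKM. Zfp36 (median 45.5), Ier2 (44.0), Jun (40.8) and Ier3 (34.9 FPKM) formed a middle tier. Dusp1 (17.3), Atf3 (15.9) and Egr1 (10.2 FPKM) were lower, and Fosb lowest at 1.61 FPKM. Ier3 had the widest range of all 10, from 7.79 to 158 FPKM, a 20.3-fold span, and Ier2 the narrowest, a 2.05-fold span.

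**Figure D1:**
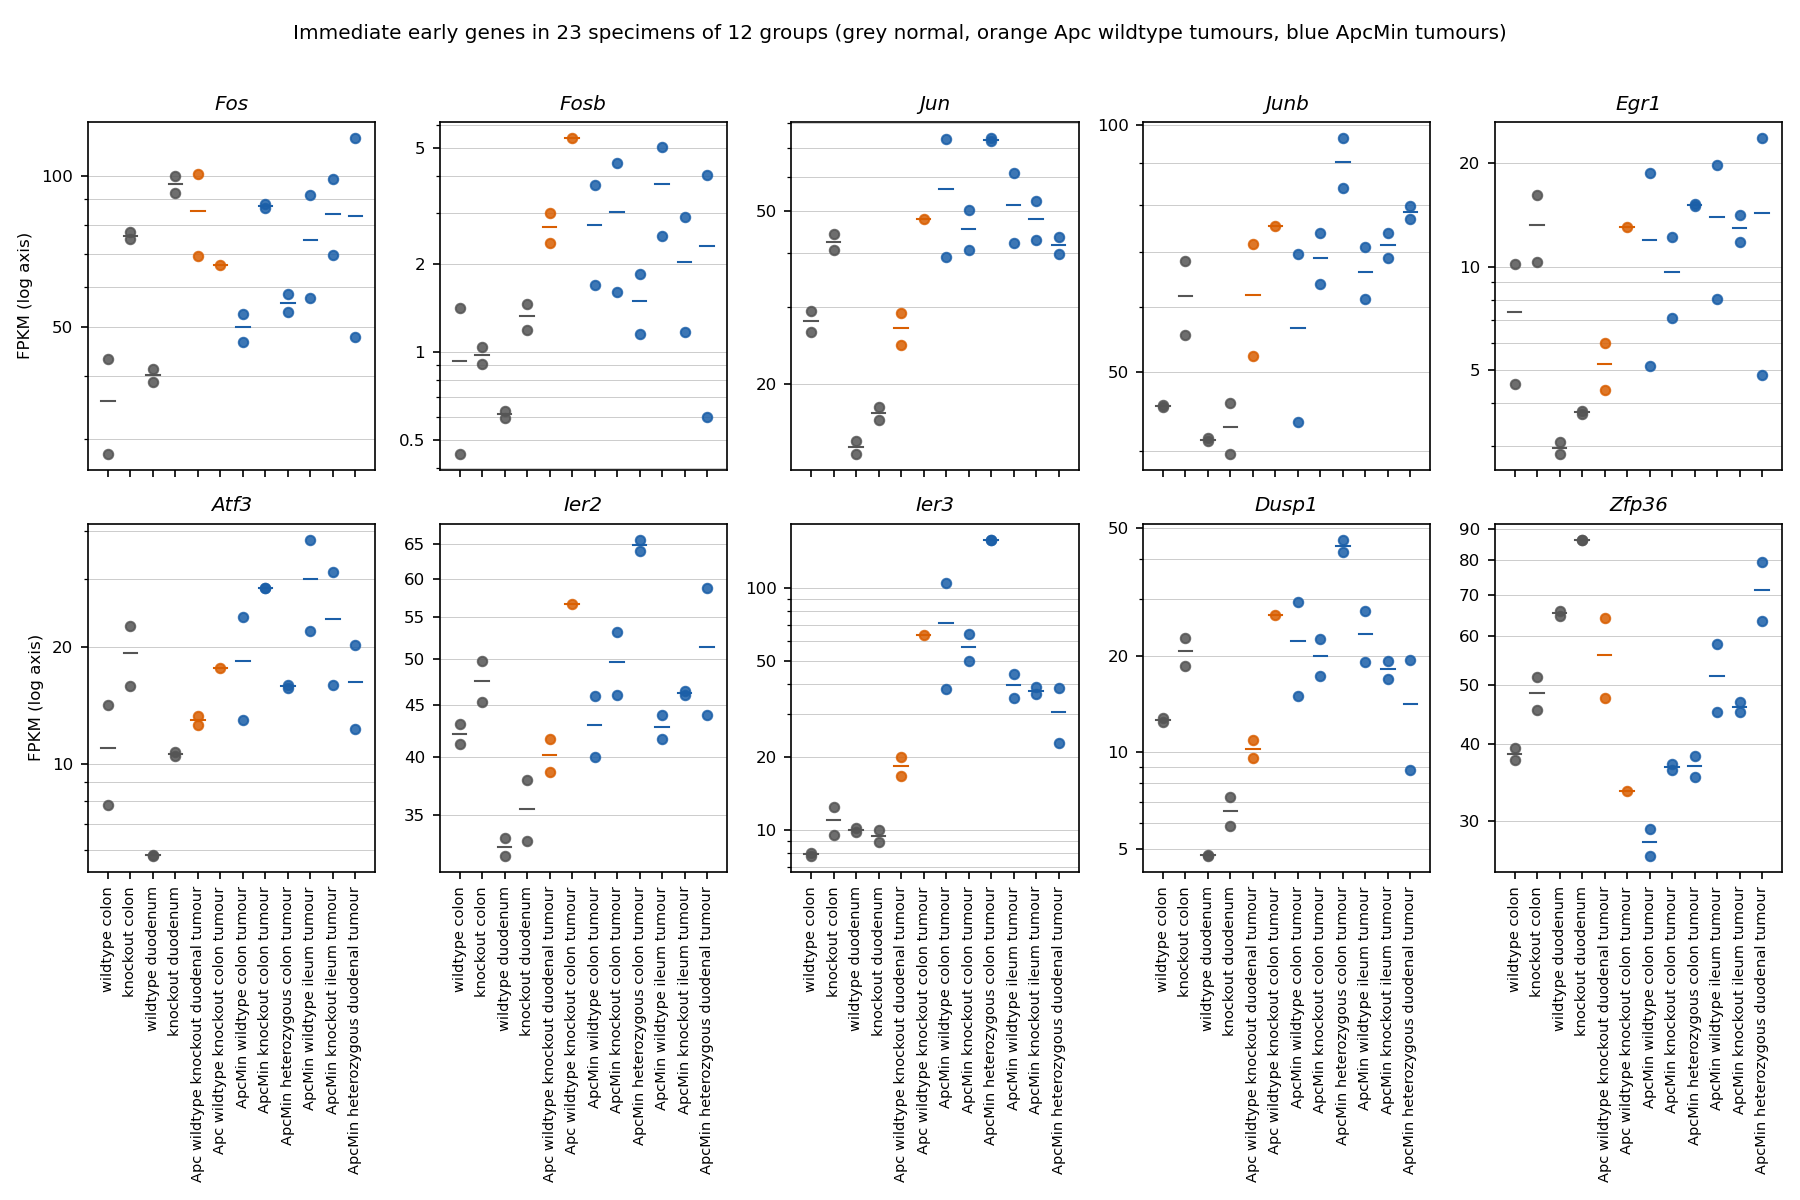
FPKM of each immediate early gene on log axes, 1 point per specimen and a short bar at the mean of each of the 12 groups, which stand along the x axis. Ier3 climbs from 7.79 to 12.4 FPKM in normal tissue to 157 and 158 FPKM in the heterozygous ApcMin colon tumours, while Zfp36 is highest in knockout duodenum at 86.3 FPKM.

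The specimens carry signs that bear on these levels. Enterocyte markers summed to 22408 to 25496 FPKM in duodenum and 1109 to 1916 FPKM in colon. Smooth muscle markers summed to 918 to 986 FPKM in duodenum, although it is labelled epithelium, and to 2479 to 3135 FPKM in colon, labelled whole tissue. In bulk RNA, fewer cells of a type and less RNA per cell cannot be told apart. The 2 specimens of wildtype duodenum lay as close as repeat lanes in run 1, within the sampling noise (0.989 times the SD expected from the lanes), and 1.2 times that SD apart in run 2, against 2.01 to 5.48 times in the other pairs, and were counted as 1 sample. Every ApcMin tumour had 24.0 FPKM or more of Xist, the RNA that coats the silenced X in female cells, up to 55.6 FPKM, and normal specimens had at most 0.461 FPKM, so tumour and sex cannot be told apart where ApcMin tumours are set against normal tissue. The Apc wildtype knockout tumours of the duodenum differed, with 34.2 FPKM of Xist in tumour 1 and 0.0212 FPKM in tumour 2. Of the 23 specimens, 11 were read in both of 2 sequencing runs, the ApcMin wildtype and knockout tumours in run 2 only and the heterozygous tumours in run 1 only.

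Fos, the AP-1 subunit that gives the family its name, was higher in knockout than in wildtype specimens in 3 of 4 settings, without passing the test in any. In normal colon the knockouts were at 77.2 and 74.9 FPKM and the wildtypes at 43.2 and 28.0 FPKM. In normal duodenum the knockouts were at 92.4 and 100 FPKM, against 38.9 and 41.3 FPKM in wildtype. The ApcMin knockout colon tumours were at 87.7 and 86.2 FPKM, against 53.2 and 46.8 FPKM with wildtype Cftr. The groups did not overlap in these 3 settings. They did in ileum tumours, where the knockouts were at 98.5 and 69.5 FPKM and the wildtypes at 91.7 and 57.2 FPKM. The share of all tested genes without overlap was not counted. Normal colon and duodenum came from the same animals, so those settings are not separate repeats. Nor are the ApcMin colon and ileum tumours, which shared an animal in each genotype. Jun, Dusp1, Egr1, Atf3 and Zfp36 did not overlap between the genotypes in colon and duodenum either, so Fos was not alone in this. With so few specimens in a group, these separations are descriptions.

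On the log2(FPKM + 1) scale used for all changes, the Fos difference was 1.11 (SE 0.36, 95% interval 0.33 to 1.88, adjusted p = 0.536) in colon and 1.24 (SE 0.44, 95% interval 0.29 to 2.19, adjusted p = 1) in duodenum. In ApcMin tumours it was 0.79 (SE 0.36, adjusted p = 0.405) in colon and 0.19 (SE 0.36, adjusted p = 0.999) in ileum. None of the 10 members was called between knockout and wildtype in any of these 4 comparisons. Of all tested genes, 0% were called in colon and 0% in duodenum. The called share was 0.0638% in the ApcMin colon tumours, and it was 0.121% in the ileum tumours. At an unadjusted p under 0.05, limma counted 2 members (Fos and Jun) of 948 genes in colon, 1 (Fos) of 368 in duodenum, 2 (Fos and Zfp36) of 1708 in ApcMin colon tumours and 0 of 825 in ileum tumours. In ApcMin colon tumours the Fos difference ran from 0.70 to 0.88, and that of Zfp36 from 0.32 to 0.47, when 1 tumour was left out.

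Zfp36, which encodes the decay factor tristetraprolin, was also higher in the knockouts of those 3 settings, with smaller differences that did not pass. It was at 45.5 and 51.5 FPKM in knockout colon against 39.4 and 37.7 FPKM in wildtype colon (log2 difference 0.32, adjusted p = 0.761). In duodenum both knockouts were at 86.3 FPKM and the wildtypes at 64.8 and 66.1 FPKM (0.39, adjusted p = 1). In ApcMin colon tumours the knockouts were at 37.2 and 36.3 FPKM and the wildtypes at 29.1 and 26.3 FPKM (0.40, adjusted p = 0.338). In ileum tumours the groups overlapped, at 46.9 and 45.1 FPKM against 58.3 and 45.1 FPKM.

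Atf3, a stress-induced factor of the ATF family, was at 15.9 and 22.7 FPKM in knockout colon against 14.2 and 7.81 FPKM in wildtype colon (log2 difference 0.79, adjusted p = 0.757). The duodenal values were 10.5 and 10.7 FPKM against 5.82 and 5.79 FPKM (0.77, adjusted p = 1). The ApcMin knockout colon tumours both stood at 28.5 FPKM, against 23.9 and 13 FPKM in wildtype (0.66, adjusted p = 0.498). The other 7 members in these 3 settings had differences between -0.24 and 0.82.

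Over all 10 members the median difference was 0.51 in colon, with 10 of 10 above 0, and 0.32 in duodenum, with 9 of 10 above 0, where the median of all tested genes was 0.00 and 0.01. It was 0.14 in ApcMin colon tumours (6 of 10) and -0.08 in ileum tumours (4 of 10), beside 0.00 and 0.01 for all genes. Several of the members are correlated with each other across samples, so these counts are descriptions. Of 37 other immediate early genes tested, 27 in colon and 28 in duodenum were above 0, with medians of 0.15 and 0.10, and none was called in either.

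Whether the knockout difference itself differed between settings was tested. Between duodenum and colon no member was called, and 0% of genes were, with 0 members and 315 genes at an unadjusted p under 0.05. Between ileum and colon ApcMin tumours no member was called either, again with 0% of genes, and 1 member (Zfp36) and 676 genes were at an unadjusted p under 0.05. For Fos these differences of differences were 0.14 (SE 0.57) and -0.60 (SE 0.51). The intervals are wide, so neither equal nor unequal effects of genotype can be read from them.

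**Figure D2:**
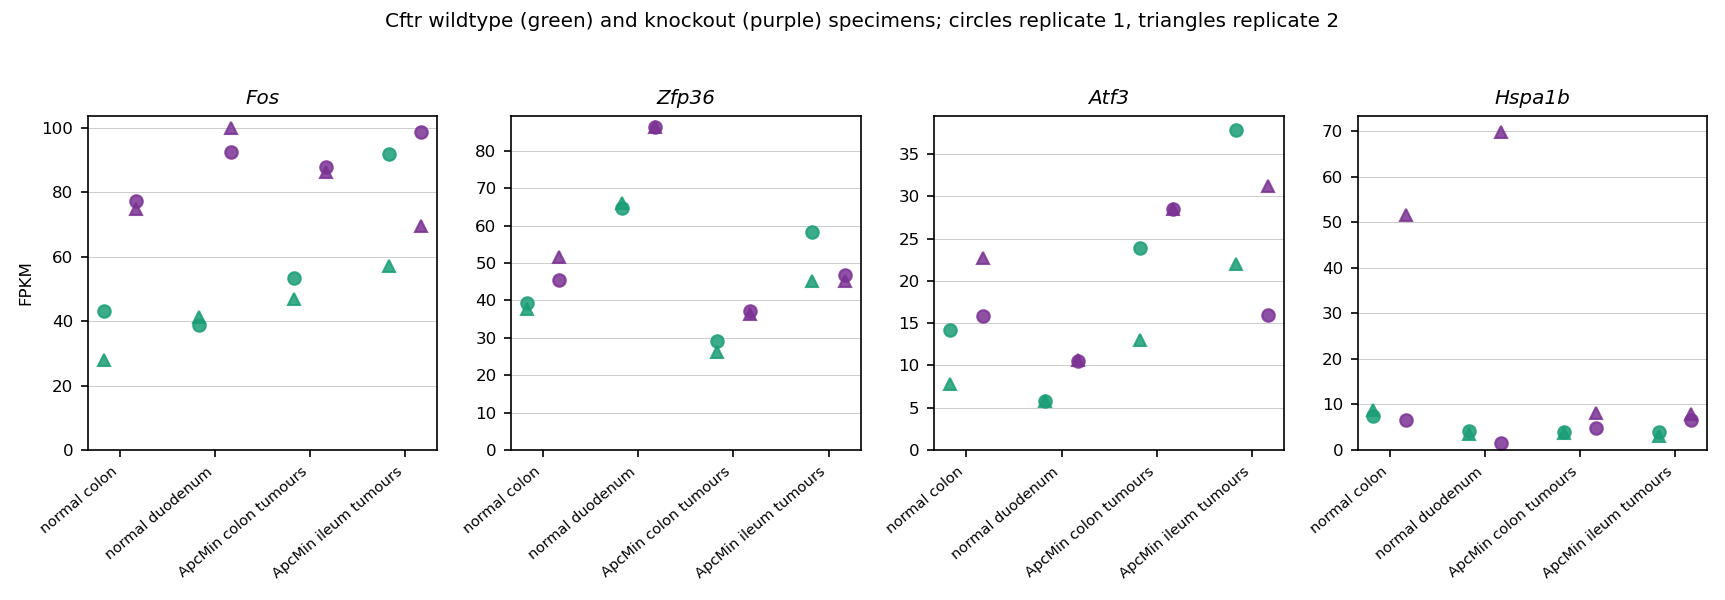
FPKM of Fos, Zfp36, Atf3 and the heat shock gene Hspa1b in wildtype (green) and knockout (purple) specimens of the 4 settings on the x axis, circles for replicate 1 and triangles for replicate 2. Both knockout animals are above both wildtypes for Fos in colon and duodenum, whereas Hspa1b is high only in replicate 2, at 51.5 and 69.9 FPKM.

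Heat shock messages, which also answer to handling, also lay mostly above 0 between knockout and wildtype. Of the 15 listed, 14 were above 0 in colon and 13 in duodenum, with a median difference of 0.36 in each, and none was called. Hspa1a and Hspa1b encode the inducible HSP70 chaperone and share near-identical sequence, and they are named here after their values were seen. In the animal that gave knockout colon 2 and knockout duodenum 2, Hspa1b was at 51.5 and 69.9 FPKM, against 1.64 to 8.82 FPKM in the other 21 specimens. The HSP70 partner Dnajb1 was at 53.9 and 53.4 FPKM in those specimens, against 25.7 and 25.1 FPKM in the other knockout animal. Between the knockout animals, 3 of 10 members were higher in colon 1 than in colon 2 and 5 of 10 in duodenum 1 than in duodenum 2. Egr1 (10.3 and 16.1 FPKM), Atf3 (15.9 and 22.7 FPKM) and Junb (55.5 and 68.2 FPKM) were higher in knockout colon 2, and Fos was at 77.2 and 74.9 FPKM. Without knockout specimen 2 the Fos difference was 1.13 in colon and 1.19 in duodenum. The whole list of 15 heat shock genes summed to 2060 and 3478 FPKM in knockout colon 1 and 2 and to 2827 and 4703 FPKM in knockout duodenum 1 and 2. The wildtype sums were 2110 to 2173 FPKM in colon and 2692 to 2716 FPKM in duodenum. The part of handling in the member differences was not tested. Epithelial markers were also higher in the knockouts, with sums of 11605 to 12094 FPKM against 8529 to 9449 FPKM in colon, and 9597 to 10454 FPKM against 8605 to 8623 FPKM in duodenum. Of 16 proliferation markers, 15 were above 0 in colon (median 0.51) and 10 in duodenum (0.06). None of 9 B cell markers was above 0 in colon (median -1.66) and 7 were in duodenum (0.17). The duodenal B cell sums of the knockouts lay on both sides of wildtype, at 14.5 and 123 FPKM against 41.2 to 44.5 FPKM. Pancreatic acinar markers also set the 2 knockout duodenums apart, with sums of 9.5 and 1475 FPKM, against at most 13.4 FPKM in wildtype duodenum. Adipocyte markers had medians of -1.21 in colon and -2.14 in duodenum. None of these markers was called, and their part in the member values was not tested.

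Normal duodenum, labelled epithelium, had less Jun and Dusp1 and more Zfp36 than normal colon, labelled whole tissue. Organ and tissue preparation cannot be told apart in this comparison. Limma called 5 of 10 members, beside 55.6% of all tested genes, so the members' share was near the background. Jun, the partner of Fos, ranged from 14.3 to 17.7 FPKM over the 3 duodenal samples and from 26.4 to 44.4 FPKM over the 4 colons (-1.09, SE 0.19, adjusted p = 0.000356), without overlap. Dusp1 was at 4.77 to 7.23 FPKM in duodenum and 12.4 to 22.7 FPKM in colon (-1.37, SE 0.26, adjusted p = 0.000634), again without overlap. Ier2 (-0.39, adjusted p = 0.00603) and Atf3 (-0.77, adjusted p = 0.0402) were lower too, the Atf3 groups overlapping. Zfp36 went the other way, at 65.4 to 86.3 FPKM in duodenum and 37.7 to 51.5 FPKM in colon (0.78, SE 0.12, adjusted p = 0.000134). Egr1, a zinc finger factor, was at 2.97 to 3.81 FPKM against 4.55 to 16.1 FPKM and just missed the threshold (-1.27, adjusted p = 0.0532), and it passed in the fits with the replicate number (adjusted p = 0.00618) or the animal (0.00551) as a block.

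The Atf3 call ended without wildtype colon 1 (adjusted p = 0.137), without knockout colon 2 (0.114) and without either knockout duodenum (0.0776 and 0.0724). Smooth muscle markers fell along the same axis, 4 of 10 called lower with a median of -1.20, and their part in these differences was not tested. Of 37 other immediate early genes, 15 were lower and 5 higher in duodenum, near the 55.6% of all genes called. Those with the smallest p were Rhob (-1.84), Btg2 (-0.76) and the growth factor Ctgf (-1.86) among the falls, and Socs3 (1.79), Dusp5 (1.26) and Nfkbiz (1.19) among the rises.

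All tumours held more Ier3 than any normal specimen. This gene encodes a small protein of survival and ERK signalling that NF-kappa B and growth factors induce. In the 8 normal specimens it was at 7.79 to 12.4 FPKM, and in all 15 tumours it was at 16.6 FPKM or more. The order of group means ran from heterozygous ApcMin colon tumours (157 FPKM) through wildtype ApcMin colon tumours (71.3), the Apc wildtype colon tumour (63.8) and knockout ApcMin colon tumours (57.0) to wildtype (39.5) and knockout (37.6 FPKM) ileum tumours. Below them came heterozygous duodenal tumours (30.7) and Apc wildtype duodenal tumours (18.2 FPKM). Of the 11 neighbours in that order over all 12 groups, 6 overlapped in their specimens, among them those from the wildtype ApcMin colon tumours to the knockout ones. Ier3 was not alone in separating all tumours from all normal specimens. Cldn4 was at most 50.1 FPKM in normal specimens and at least 89.2 FPKM in tumours, and Ereg at most 3.06 and at least 5.78 FPKM. The share of all genes that separate this way was not counted.

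Ier3 rose in each colon tumour group. In the Apc wildtype knockout it was at 63.8 FPKM in the 1 colon tumour and 12.4 and 9.51 FPKM in knockout colon, a change of 2.45 (SE 0.43, adjusted p = 0.00466). It was the 1 member called there, beside 12.8% of genes. Markers of other cells were higher in that tumour too: neutrophil markers summed to 581 FPKM (6 of 9 called) and fibroblast markers to 1312 FPKM against 515 to 621 FPKM (5 of 10). Macrophage (8 of 11) and endothelial markers (7 of 10) rose as well, and their part in the Ier3 rise was not tested. Fosb, a Fos relative, was at 5.41 FPKM in that tumour against 0.911 and 1.04 FPKM (1.70, adjusted p = 0.0923). A group of 1 tumour lends no spread of its own, so it was assumed to vary like the others.

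In wildtype ApcMin colon tumours, read in run 2 with the colons, Ier3 was at 105 and 38.0 FPKM against 7.31 and 7.92 FPKM (2.90, SE 0.35, adjusted p = 0.000606). Jun rose beside it, from 27.8 and 26.7 FPKM to 73.3 and 39.3 FPKM (0.95, SE 0.26, adjusted p = 0.0153). These were 2 of 10 members, beside 38% of genes, a share below that of all genes. Dusp1 was at 29.3 and 15 FPKM against 12.3 and 12.9 FPKM (0.70, adjusted p = 0.068), and Fos at 53.2 and 46.8 FPKM against 43.1 and 24.7 FPKM (0.59, adjusted p = 0.125). Fitted with the 2 groups alone, neither call held (Ier3 adjusted p = 0.0635, Jun 0.138). When 1 specimen was left out, the Ier3 change ran from 2.18 to 3.62 and the Dusp1 change from 0.23 to 1.16. The Jun call ended without tumour 1 (0.51, adjusted p = 0.126) and without either colon (adjusted p = 0.057 and 0.0816).

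In knockout ApcMin colon tumours Ier3 was at 64.2 and 49.8 FPKM against 12.2 and 8.90 FPKM in run 2 (2.33, SE 0.35, adjusted p = 0.00534), the only member called, beside 10.9% of genes. Fos was at 87.7 and 86.2 FPKM against 75.1 and 72.9 FPKM (0.23, adjusted p = 0.629). No member's tumour change was called different between knockout and wildtype colon, where 0.00709% of genes were called, and 0 members and 1204 genes had an unadjusted p under 0.05.

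Heterozygous ApcMin colon tumours were compared in run 1 with all 4 colons, and 5 members rose. Ier3 was at 158 and 157 FPKM against 8.11 to 12.7 FPKM, a 14.9-fold rise (3.90, SE 0.19, adjusted p = 6.1e-06). Dusp1, the MAP kinase phosphatase, was at 41.9 and 45.9 FPKM against 12.4 to 23.6 FPKM (1.36, adjusted p = 0.00215), and Jun at 73.8 and 72.4 FPKM against 26.1 to 47.5 FPKM (1.01, adjusted p = 0.000122). Junb, another AP-1 subunit (0.66, adjusted p = 0.00353), and Ier2, a nuclear protein of unsettled function (0.42, adjusted p = 0.0185), completed the 5 of 10 called, all of them higher, beside 53.2% of all genes. Zfp36 was at 35.4 and 38.3 FPKM against 40.9 to 55.0 FPKM and missed the threshold (-0.34, adjusted p = 0.0621), which it passed after quantile normalisation (0.02) and with the 6 specimens fitted alone (0.0061). The Ier2 call ended without either tumour (adjusted p = 0.0845 and 0.103) and without knockout colon 1 (0.0501).

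Jun, Ier3, Junb, Dusp1 and Ier2 rose in heterozygous duodenal tumours as well. Jun was at 39.9 and 43.6 FPKM against 14.9 to 19.1 FPKM in the 3 duodenal samples of run 1 (1.29, SE 0.11, adjusted p = 0.000445). Ier3 was at 38.5 and 22.9 FPKM against 9.30 to 11.8 FPKM (1.45, SE 0.21, adjusted p = 0.00361). Junb was at 79.6 and 76.9 FPKM against 43.5 to 50.2 FPKM (0.76, adjusted p = 0.00948). Dusp1 (1.05, adjusted p = 0.0278) and Ier2 (0.46, adjusted p = 0.044) passed too, making 5 of 10 beside 19% of all genes.

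Jun alone was called when these tumours and the normal duodenum were fitted without the other groups. When 1 specimen was left out, the Ier3 change ran from 1.09 to 1.81 and the Jun change from 1.23 to 1.35. The Dusp1 change was 0.52 without tumour 1 and 1.58 without tumour 2, and its call ended without knockout duodenum 1 (adjusted p = 0.0685). The Ier2 change was 0.25 without tumour 1, and its call ended there (adjusted p = 0.153), without knockout duodenum 2 (0.0913) and without wildtype duodenum 1 (0.0553). Egr1 was at 23.7 and 4.84 FPKM in these tumours against 2.82 to 4.01 FPKM (1.48, adjusted p = 0.103), and the value rested on tumour 1.

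In duodenal tumours of Apc wildtype knockouts Zfp36 fell. It was at 47.6 and 64.3 FPKM against 86.3 FPKM in both knockout duodenums, a change of -0.63 (SE 0.15, adjusted p = 0.024), the only member called beside 8.16% of genes. That call ended with the 2 groups fitted alone (adjusted p = 0.14) and without any of the 3 specimens other than duodenal tumour 2 (0.0963 to 0.158). Ier3 was at 16.6 and 19.9 FPKM against 9.99 and 8.87 FPKM (0.88, adjusted p = 0.153), Jun at 24.6 and 29.2 FPKM against 17.7 and 16.5 FPKM (0.62, adjusted p = 0.138) and Junb at 52.3 and 71.6 FPKM against 45.8 and 39.7 FPKM (0.51, adjusted p = 0.141). Set against the heterozygous ApcMin duodenal tumours in run 1, Jun was at 25.9 and 29.6 FPKM against 39.9 and 43.6 FPKM (-0.58, adjusted p = 0.0572) and Ier3 at 18.4 and 21.8 FPKM against 38.5 and 22.9 FPKM (-0.55, adjusted p = 0.236). No member was called in that comparison, where 1.32% of genes were, and 2 members (Jun and Ier3) and 2666 genes had an unadjusted p under 0.05. When 1 of these tumours was left out, the Jun difference ran from -0.67 to -0.48 and that of Ier3 from -0.91 to -0.19.

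Ileum and colon tumours of ApcMin mice differed in 1 member, beside 24.1% of genes. The ileum and colon tumours of a genotype came from the same animal, which the fit did not take into account. The tumours are therefore not separate animals here. Zfp36 was at 45.1 to 58.3 FPKM in the 4 ileum tumours and at 26.3 to 37.2 FPKM in the 4 colon tumours (0.59, SE 0.11, adjusted p = 0.00151), the same direction as between normal duodenum and colon. Ier3 was at 34.9 to 44.1 FPKM in ileum and 38.0 to 105 FPKM in colon (-0.63, adjusted p = 0.0892), and without wildtype colon tumour 2 it passed (-0.99, adjusted p = 0.00134).

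**Figure D3:**
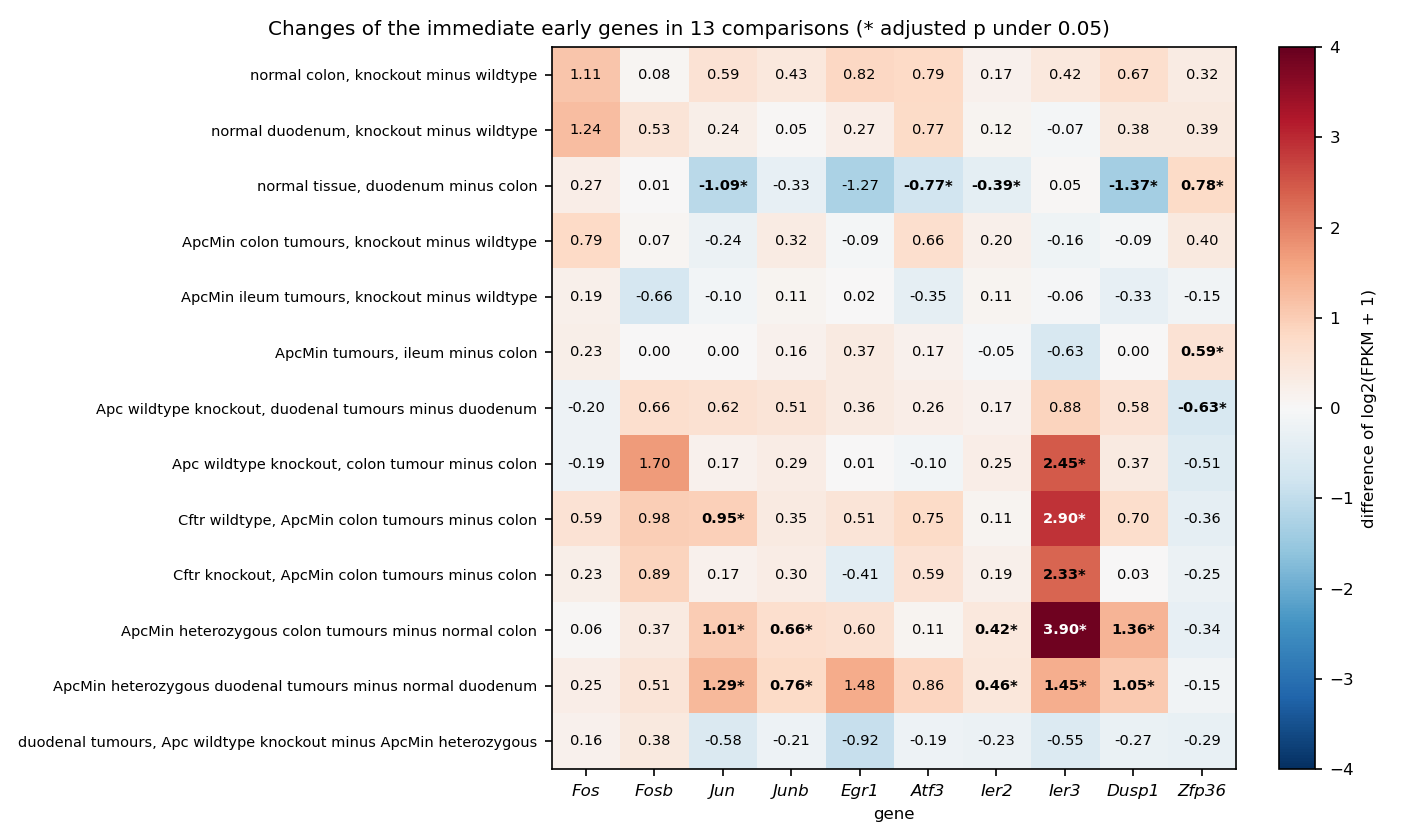
Difference of log2(FPKM + 1) for the 10 members (columns) in 13 comparisons (rows), as colour and number, with an asterisk where the adjusted p was under 0.05. Ier3 is marked in 5 of the 6 rows that set tumours against normal tissue, with changes up to 3.90, and the 4 rows of knockout minus wildtype hold no asterisk.

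Blood and stromal lists did not move alike in tumours. In the heterozygous colon tumours B cell markers summed to 8.89 and 14.7 FPKM, against 16.8 to 112 FPKM in normal colon. T cell markers summed to 8.26 and 11 FPKM there, against 12.3 to 27.3 FPKM. Fibroblast sums, at 599 and 604 FPKM, lay within the 515 to 646 FPKM of normal colon. Neutrophil markers summed to 6.52 to 11.4 FPKM in normal tissue and to 1714 and 2202 FPKM in the heterozygous colon tumours, the 2 tumours with the highest Ier3. The sums were 1056 and 192 FPKM in wildtype ApcMin colon tumours 1 and 2, where Ier3 was at 105 and 38.0 FPKM, and 80.8 to 120 FPKM in heterozygous duodenal tumours. Smooth muscle markers fell in wildtype ApcMin colon tumours (10 of 10 called) and in heterozygous colon tumours (10 of 10). Of 14 hypoxia genes, 8 and 9 were called, all higher, beside 38% and 53.2% of all genes. The part of these cell types and of hypoxia in the member changes was not tested.

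Genes around the members were read from lists, and each count stands beside the called share of all genes, 53.2% in heterozygous colon tumours, 38% in wildtype ApcMin colon tumours, 10.9% in knockout ones, 19% in heterozygous and 8.16% in Apc wildtype duodenal tumours. Of the 6 EGF receptor ligands tested, 5 rose in wildtype ApcMin colon tumours, led by Ereg (2.38), Btc (1.30) and Hbegf (1.54), and 5 rose in heterozygous colon tumours, led by Ereg (2.30), Btc (1.28) and Tgfa (0.43). In the Apc wildtype duodenal tumours 3 rose, Btc (1.87), Ereg (2.29) and Tgfa (0.60). Of 27 kinases and factors upstream of the members, 4 rose and 9 fell in heterozygous colon tumours, with Elk3 (1.63), Mef2d (-0.82) and Nras (0.62) the strongest by p. In wildtype ApcMin colon tumours 5 rose and 6 fell. The counts of kinases and factors are near the shares of all genes called. Those of the ligands lie above the shares, in a list of only 6 genes.

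Of 37 other immediate early genes, 15 rose and 6 fell in heterozygous colon tumours, and 12 rose and 5 fell in wildtype ApcMin colon tumours, near the 53.2% and 38% of all genes called there. The rises in the first were led by Dusp4 (2.63), the cytokine brake Socs3 (2.00) and Bhlhe40 (1.04), and the falls by Srf (-0.62), which encodes serum response factor, Klf4 (-1.47) and Mcl1 (-0.81). In wildtype ApcMin colon tumours Phlda1 (2.68), Bhlhe40 (0.82) and Socs3 (1.62) led the rises and Klf2 (-1.11), Jund (-0.59) and Srf (-0.42) the falls. In knockout ApcMin colon tumours 7 rose and 1, Srf (-0.40), fell. In heterozygous duodenal tumours 9 rose and 1, Per1 (-0.74), fell.

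Messages that tristetraprolin is known to bind were also listed. Of 11 tested, 10 rose in heterozygous colon tumours, led by the neutrophil chemokines Cxcl2 (5.37) and Cxcl1 (4.88) and by Ccl3 (1.75). In wildtype ApcMin colon tumours 8 rose, led by Ptgs2 (2.54), Cxcl1 (3.62) and Plaur (2.17). Zfp36 itself was not called in either (-0.34 and -0.36, adjusted p = 0.0621 and 0.0895).

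The 2 specimens of a group could lie far apart. In heterozygous duodenal tumours 4 members, Fos, Fosb, Egr1 and Dusp1, were at least 2-fold higher in tumour 1 than in tumour 2 when counted on FPKM + 1. Of all tested genes 5.66% were as far apart in either direction. Fos was at 119 and 47.7 FPKM there and Dusp1 at 19.4 and 8.83 FPKM. In wildtype ApcMin colon tumours 2 members, Egr1 (18.7 and 5.14 FPKM) and Ier3, were as far apart on that scale, beside 7.91% of genes, and Fosb was at 3.73 and 1.70 FPKM, 2.2-fold apart in FPKM itself. Over all pairs Egr1 and Fosb had the largest specimen SD of the members, 0.731 and 0.577 on the log2 scale, against a median of 0.161 for all tested genes. Zfp36 (0.156) and Ier2 (0.128) were below that median.

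Values also shifted between the runs, by less. The index sequence of each specimen differed between runs, so library preparation and sequencing cannot be told apart. In the 11 specimens read in both runs, all 10 members averaged lower in run 2, and limma called 7 of them, beside 35.2% of genes. The shifts of the 7 ran from -0.23 (Junb, adjusted p = 8.11e-06, lower in 11 of 11 specimens) through Ier2 (-0.21), Zfp36 (-0.18) and Ier3 (-0.16) to -0.11 in Jun, Atf3 and Dusp1. Fos shifted by -0.07 (adjusted p = 0.0628), and wildtype colon 2 had the largest Fos gap, 31.2 FPKM in run 1 and 24.7 FPKM in run 2. Its 2 libraries differed over all genes by an SD of 0.394, against 0.145 to 0.193 in the other 10 specimens. Tumours read in 1 run were compared with normals of the same run for this reason.

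**Figure D4:**
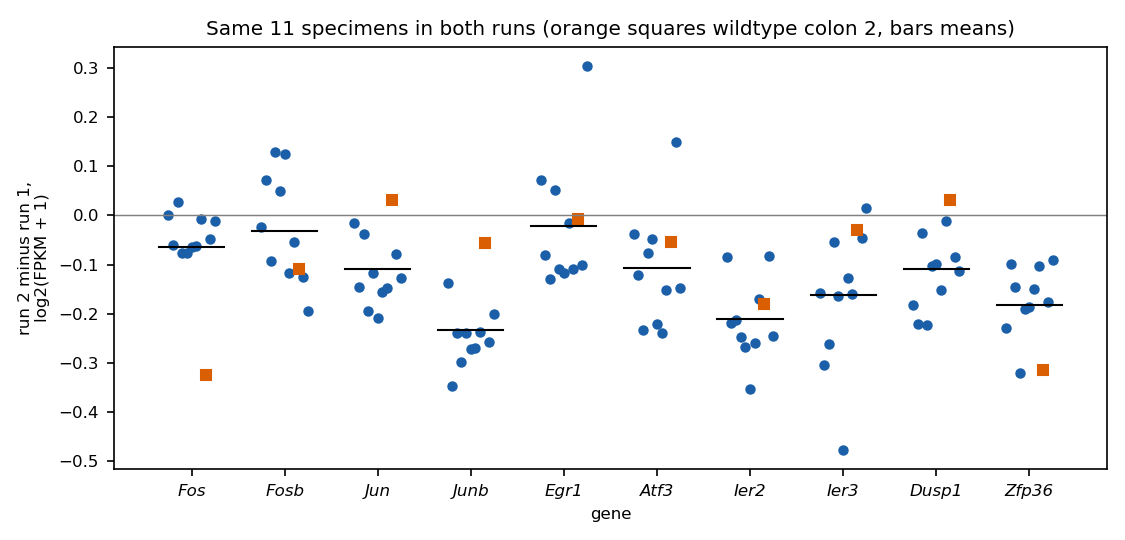
Run 2 minus run 1 of log2(FPKM + 1) for each member in the 11 specimens sequenced in both runs, 1 point per specimen, a bar at the mean and an orange square for wildtype colon 2. All points of Junb, Ier2 and Zfp36 lie below 0, with means of -0.23, -0.21 and -0.18.

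The members did not move as a single block. Over the 22 samples, Jun correlated with Dusp1 at r = 0.93, with Ier3 at 0.83, with Junb at 0.81 and with Egr1 at 0.80. Fos correlated with Jun at 0.05 and with Dusp1 at 0.07. Zfp36 ran against Dusp1 (r = -0.63) and Jun (-0.58). Among the 15 tumours alone Ier3 and Dusp1 correlated at 0.94, and Fos and Jun at -0.27. The samples share animals, runs and tissue make-up, so these are descriptions.

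**Figure D5:**
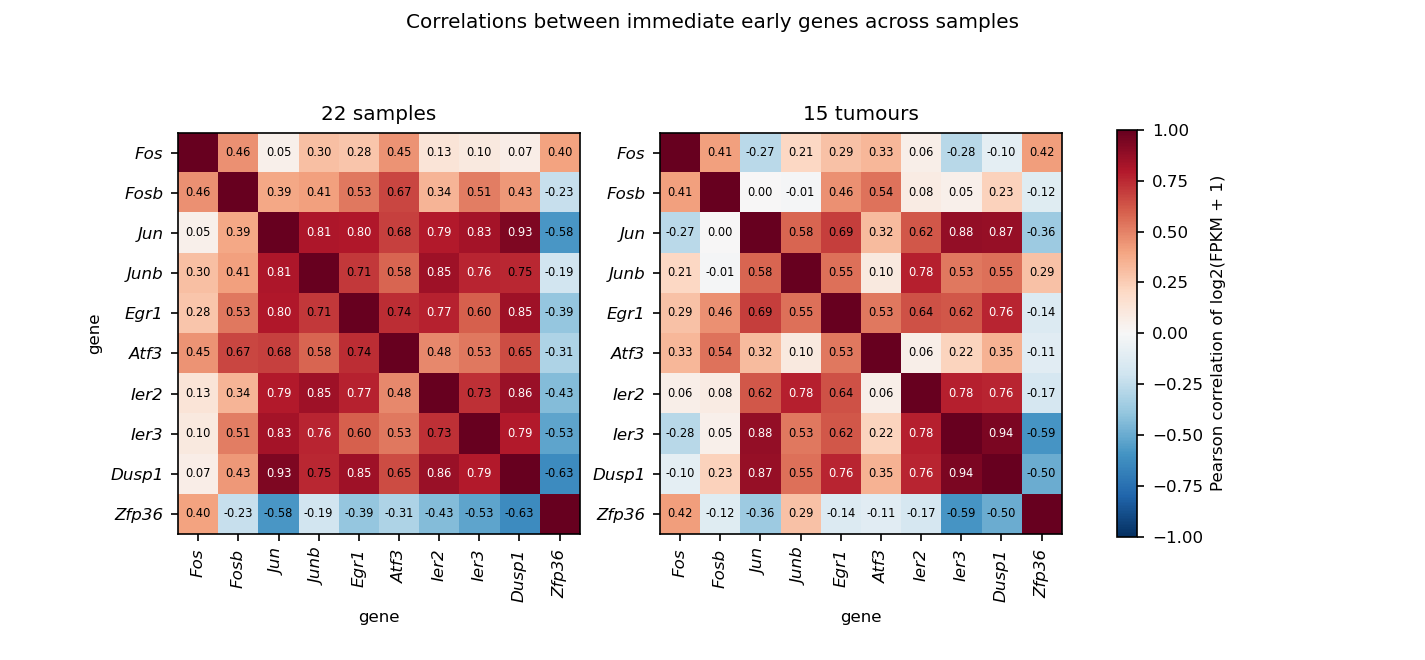
Pearson correlation of log2(FPKM + 1) between each pair of members over 22 samples (left) and over the 15 tumours (right), with genes on both axes. Jun, Junb, Egr1, Ier2, Ier3 and Dusp1 form a block of r between 0.60 and 0.93 on the left, while Fos stays between 0.05 and 0.46.

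The genes most like the members were taken by their correlation with the mean of the 10 standardised member values over 22 samples. Among 11182 candidates the first 10 were Phlda1 (r = 0.85), Cldn4 and Ppp1r13l (0.84) and Smox, Maff, Mpzl1, Tpm4, Fam110a, Vill and Nr4a1 (0.83). Of all candidates 18.5% exceeded r = 0.5. Among the 15 tumours alone the r of these 10 genes was lower, from 0.55 (Tpm4) to 0.77 (Cldn4). Phlda1, itself an immediate early gene, ranged from 8.08 to 126 FPKM, and Nr4a1, an orphan nuclear receptor of the same class, from 1.13 to 18.6 FPKM.

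In the GENCODE annotation of GRCm38, 9 of the 10 members are placed here (the position of Egr1 is not reported), as protein-coding genes at chr12:85473890-85477273 (Fos), chr7:19302696-19310051 (Fosb), chr4:95049034-95052222 (Jun), chr8:84974484-84978718 (Junb), chr1:191170296-191218039 (Atf3), chr8:84661331-84662852 (Ier2), chr17:35821684-35822923 (Ier3), chr17:26505590-26562128 (Dusp1) and chr7:28376784-28380253 (Zfp36). Fos and Ier3 lie on the plus strand and the other 7 of these on the minus strand. Genes on the opposite strand overlap Jun (Junos), Junb (Prdx2), Atf3 (Gm24748), Dusp1 (Ergic1 and Gm8225) and Zfp36 (Gm44710). These overlaps are of whole gene spans, and exons were not compared. Whether strand was used in counting is not given in the sources used here. Without strand, reads from bases that such pairs share cannot be told apart.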

How the data were processed

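RNA from 23 mouse specimens was sequenced after poly(A) selection, per the labels' protocols. The submitters' processing notes name the mm10 build and, with no order or role, TopHat2 2.0.13, FastQC and Cuffnorm. The authors deposited FPKM per gene in 68 columns, 1 per specimen and lane. No counts were used here, and lane columns differed 1.84-fold in relative depth as estimated from the lowest values, so low genes such as Fosb are the least precise. A row of the table is a gene name, and 2 names were repeated.

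Lanes were averaged within a run and runs within a specimen. Genes with at least 1 FPKM in at least 2 specimens were kept, 14098 in all, and log2(FPKM + 1) was fitted with limma 3.58.1 in R 4.3.3, with a mean-dependent prior, 1 spread shared by all groups, Benjamini-Hochberg adjustment over all genes and a threshold of 0.05. A fold on this scale understates the change of low genes. Tumours read in 1 run were compared with columns of that run. An exact permutation test of 2 against 2 cannot go below p = 0.333, so none was used. The code was tested on simulated data.

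The members, gene lists and comparisons were chosen with earlier results of these data known. The text names all members, the 3 rises and 3 falls of smallest p among other immediate early genes, up to 3 genes of any other list and the 10 genes most correlated with the members. Replicate numbers mark the same animal in normal colon and duodenum, where deviations from the group means correlated at 0.0103 in wildtype and 0.0332 in knockout, and mark no shared animal between tumours and normal tissue. Both wildtype duodenum specimens carry different animal numbers and were averaged as 1 sample. Alternatives were the pseudocount, the filter, quantile normalisation, the groups fitted, the run, the replicate block and leaving out each specimen.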

Additional observations from a re-analysis of the deposited data

How the results depend on the processing

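Members and genes were recounted under each alternative. Only some of the members had their direction followed in each comparison of groups. For those, the direction held in all but 2 of 608 recomputations, both for Fos in ApcMin ileum tumours (0.19). That Fos difference became -0.15 without wildtype tumour 2 and -0.06 without knockout tumour 1. Reversals among the members not followed were not counted.

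With no filter on low values, genes called rose from 0 to 16 in colon and from 0 to 30 in duodenum between knockout and wildtype, from 9 to 26 in ApcMin colon tumours and from 17 to 50 in ileum tumours. With a pseudocount of 0.1 the ileum count was 10 and that of knockout against heterozygous duodenal tumours 85 (186 as reported). Quantile normalisation gave 5 in ApcMin colon tumours. Run 2 alone gave 1 gene in duodenum, and run 1 alone 2 members in Apc wildtype duodenal tumours. Keeping wildtype duodenum as 2 specimens gave 31 genes for knockout against wildtype and 4083 for heterozygous duodenal tumours (2675 as reported).

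Fitting the compared groups alone gave 0 genes in ApcMin colon and 120 in ileum tumours between genotypes, and 2257 between ileum and colon (3394). It gave 215 genes and 0 members in Apc wildtype duodenal tumours (1151 and 1), 2 members in the colon tumour (1), 343 genes and 0 members in wildtype ApcMin colon tumours (5356 and 2) and 701 genes in knockout ones (1534). Heterozygous duodenal tumours had 296 genes and 1 member (5), and knockout against heterozygous duodenal tumours 0 genes.

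With the replicate number as a block, genes called were 0 in ApcMin colon and 272 in ileum tumours between genotypes, 56 with 0 members in Apc wildtype duodenal tumours, 0 with 0 members in wildtype and in knockout ApcMin colon tumours, and 0 between duodenal tumours. With the block and wildtype duodenum as 2 specimens there was 1 gene in duodenum, and heterozygous duodenal tumours had 1756 genes and 3 members. In these tumour comparisons the number is only a name, and each fit has fewer residual degrees of freedom.

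Leaving out 1 specimen gave 0 to 27 genes in colon, 0 to 21 in duodenum, 1 to 1921 with 0 to 2 members in ApcMin colon tumours and 3 to 6 in ileum tumours, where Fos ranged from -0.15 to 0.53. It gave 1 to 2 members between ileum and colon, 418 to 1029 genes with 0 to 1 members in Apc wildtype duodenal tumours, 703 to 772 genes in the colon tumour, 2331 to 6624 genes with 1 to 6 members in wildtype and 215 to 756 genes in knockout ApcMin colon tumours. Heterozygous colon tumours had 4699 to 6762 genes, heterozygous duodenal tumours 4 to 9 members, and knockout against heterozygous duodenal tumours 25 to 1833 genes with 0 to 2 members. The cause of these shifts was not tested beyond the fewer specimens. Fos between runs passed without the run 1 library of wildtype colon 2 (-0.04, adjusted p = 0.0239), an alternative chosen after seeing the data.

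Among the calls that passed under every alternative run for them were Ier3 in the heterozygous colon tumours and Jun in both heterozygous tumour groups. Jun, Dusp1 and Zfp36 between duodenum and colon were among them too, and this list is not complete. Groups of 1 or 2 specimens, several from 1 animal, limit all of these comparisons.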
